A study of Mus musculus with 12 samples.

Results

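The genes described here code for the machinery that builds autophagosomes, for the receptors that load cargo into them, for mitophagy and for the lysosomal end of the route. They were chosen by symbol, as a list of 34 genes, and 33 of them were measured among 23185 named genes. The remaining one, Optn, which codes for the cargo receptor optineurin, was not analysed here. Skeletal muscle of mice that received repeated intraperitoneal injections was profiled on 12 Affymetrix GeneChip Mouse Gene 2.0 ST arrays, 1 per mouse. The vehicle group (n = 3) received 0.1% BSA, the KC group (n = 4) received 50 µg/kg of recombinant KC in 0.1% BSA, and the IL-8 group (n = 5) received 50 µg/kg of recombinant human IL-8 in 0.1% BSA, every other day for 6 days. KC is the mouse chemokine encoded by Cxcl1, and IL-8 is a human chemokine that has no direct counterpart gene in the mouse. The vehicle and IL-8 mice were male C57BL/6J mice of 8 weeks and their tibialis anterior (TA) muscle was taken on day 7. The sources used here do not state the muscle, the age or the day of harvest for the KC mice. The comparisons asked how muscle gene expression responds to systemic delivery of either chemokine.

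In macroautophagy, a flat membrane called the phagophore grows around cytoplasm, closes into an autophagosome and fuses with a lysosome, where the contents are degraded. The lipid kinase complex around Pik3c3 marks the growth site with the lipid PI3P, Atg9a vesicles and the lipid transfer proteins Atg2a and Atg2b supply membrane, and a pair of ubiquitin-like conjugation systems attach Atg8-family proteins such as LC3 to it. Mitophagy is the same route with mitochondria as cargo, selected by receptors on the outer mitochondrial membrane or by the kinase Pink1. In skeletal muscle, autophagy is known both as a housekeeping process that fibers need and as a route of protein and organelle loss in wasting.

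The values are log2 expression levels after RMA (robust multi-array average), so 1 unit is a doubling, and levels are compared between groups for the same gene only. The labels name skeletal muscle, although their extraction text describes abdominal muscle biopsies from patients. The 15 muscle fiber markers averaged 11.26 to 11.71 in the 12 arrays, whose medians over all genes were 3.31 to 3.48. The 11 of 12 liver markers that were measured averaged 6.48 in vehicle replicate 2, 6.22 in vehicle replicate 4 and 6.02 in IL-8 replicate 1, against 2.80 to 3.32 in the other 9 arrays. By group, these liver means ranged from 2.97 to 6.48 in vehicle, from 2.97 to 3.32 in KC and from 2.80 to 6.02 in IL-8 arrays. Hepatocyte genes that define this list were high in those 3 arrays, with Alb (albumin) at 10.15, 9.78 and 7.70 and Fgb (fibrinogen) at 6.84, 5.91 and 6.82. They are called liver-transcript arrays below, and the values within and without them stand beside the larger differences. Of the other marker lists, IL-8 versus vehicle called higher 1 of 15 muscle fiber markers (Ttn) and 2 of 8 endothelial markers (Vwf and Robo4). It called lower 1 of 6 adipocyte markers (Fabp4). Over all genes 1.75% were called higher and 0.802% lower. The fiber and endothelial lists were mixed, with means above vehicle for 10 of 15 and 5 of 8 markers. In each of these lists 1 marker was lower at an unadjusted p under 0.05 (limma). Endothelial log2 differences ran from -0.51 to 0.75. The 7 fibroblast markers averaged 8.17 to 8.37 in vehicle, 7.13 to 8.81 in KC and 7.06 to 8.55 in IL-8 arrays. The 8 neutrophil markers averaged 2.05 to 2.67 over all 12 arrays. The part of fibroblast, endothelial and adipocyte RNA in the differences below was not tested, and in bulk muscle fewer cells of a type and less RNA per cell cannot be told apart.

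IL-8 versus vehicle asked which autophagy genes differ after IL-8. Of the 33 genes, 2 rose: Atg2b, a lipid transfer protein of the growing phagophore, by 2.03-fold, and Nbr1, a cargo receptor, by 1.56-fold. No gene of the list fell. A gene was called at an adjusted p of at most 0.1 (limma, Benjamini-Hochberg over all 23185 genes) with a fold change of at least 1.5, and by this rule 1.75% of all genes were called higher and 0.802% lower, 2.55% in either direction. At an unadjusted p under 0.05, 9 of the 33 were higher (10.1% of all genes) and 2 were lower (11.6% of all genes). The arrays of the groups did not overlap for 3 genes that were higher (Atg2b, Nbr1 and Pink1, against 4.60% of all genes) and for 2 that were lower (Atg3 and Bnip3l, against 6.43%). A test of 2 group means with unequal variances gave an unadjusted p under 0.05 to 3 of the 33 (Atg2b, Bnip3l and Nbr1). It did so for 9.87% of all genes, and called none after adjustment over all genes. This unequal-variance test was not the study's array test, which used a GenePattern module with q-values. The mean was above that of vehicle for 23 of 33 genes, and for 38.7% of all genes. The median log2 difference was 0.18 over the 33 genes and -0.071 over all genes. All 33 were among the 11592 genes with a mean level above that of the median gene. Over those brighter genes the median log2 difference was 0.053.

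**Figure D1:**
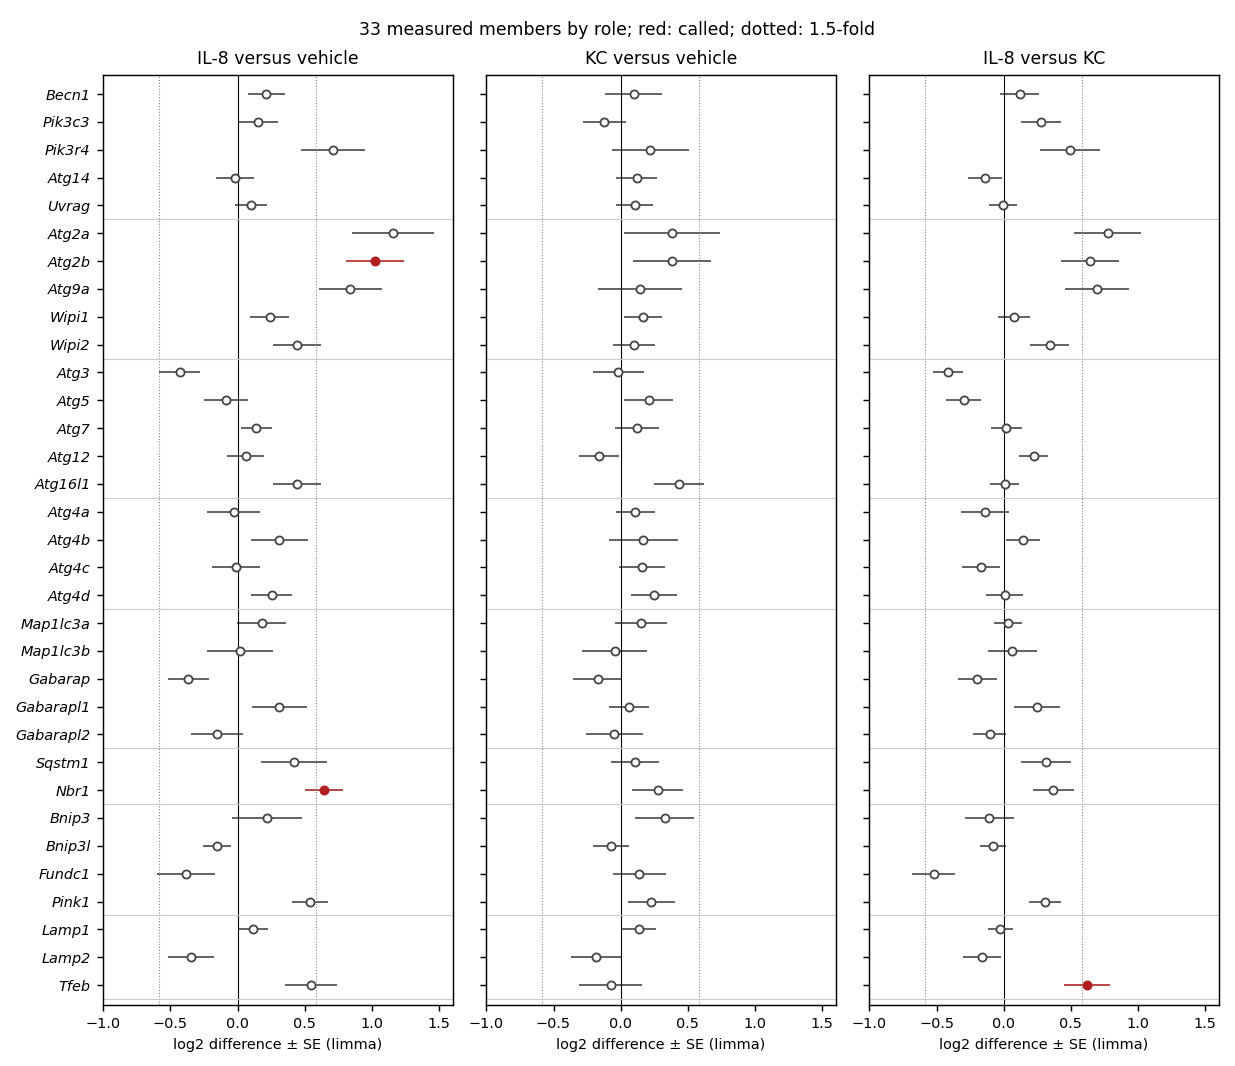
Log2 difference between group means, with the limma standard error, for each of the 33 measured genes in IL-8 versus vehicle, KC versus vehicle and IL-8 versus KC, ordered by role. Red points are called genes and dotted lines mark 1.5-fold in either direction. Atg2b (1.02) and Nbr1 (0.64) are red for IL-8 versus vehicle, no gene is red for KC versus vehicle, and Tfeb (0.62) is red for IL-8 versus KC.

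The genes that supply membrane to the phagophore and read its lipid mark had the highest median difference of the 8 roles. Of Atg2a, Atg2b, Atg9a, Wipi1 and Wipi2, 1 was called (Atg2b), 4 had an unadjusted p under 0.05, and all 5 means were above vehicle, with a median log2 difference of 0.84. The mean level of these 5 genes was 4.95 to 5.56 in the vehicle arrays, 5.08 to 5.87 in the KC arrays and 5.63 to 6.18 in the IL-8 arrays. Atg2b measured 4.67, 3.83 and 3.90 in the vehicle arrays, 5.18, 4.55, 4.29 and 4.04 in the KC arrays and 4.70, 5.21, 5.15, 5.33 and 5.39 in the IL-8 arrays. Every IL-8 array was above every vehicle array, although IL-8 replicate 1 and vehicle replicate 1 lay close together. The means were 4.13 ± 0.47 (SD, n = 3) and 5.16 ± 0.27 (SD, n = 5), a log2 difference of 1.02 (SE 0.22, adjusted p = 0.0908). The exact permutation p, two-sided, was 0.0179, the smallest that 56 splits of 3 against 5 arrays allow.

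Fitting a term for liver-transcript arrays, an alternative chosen after seeing the data, gave a log2 difference of 0.71 for Atg2b (SE 0.13, adjusted p = 0.152). In the liver-transcript arrays alone (2 vehicle, 1 IL-8) the difference was 0.84, and in the remaining 5 (1 vehicle, 4 IL-8) it was 0.60. Leaving out any of vehicle replicates 2 and 4 and IL-8 replicates 2, 3, 4 and 5 ended the call (adjusted p from 0.136 to 0.320). Over all genes, 0.0129% were called higher without IL-8 replicate 5 and 0% without any other of these arrays. Leaving out vehicle replicate 1 gave an adjusted p of 0.0054, with 7.74% of all genes called higher.

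The stretch of 250 bases before the Atg2b start site is shown because Atg2b had the smallest p of the list. It is RefSeq sequence of GRCm38.p6, chr12:105685242-105685491, minus strand, written 5′ to 3′, and the capitals mark 3 GC boxes, the motif bound by Sp1-type factors, read here on the opposite strand (CCGCCC).
Atg2b: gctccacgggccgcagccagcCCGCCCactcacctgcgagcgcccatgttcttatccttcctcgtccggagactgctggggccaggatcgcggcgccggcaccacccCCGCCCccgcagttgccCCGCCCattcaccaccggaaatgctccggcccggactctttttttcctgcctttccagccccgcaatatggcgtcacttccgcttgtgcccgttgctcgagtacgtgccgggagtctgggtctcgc
A GC box (GGGCGG, both strands) lay in the promoter window of 19 of the 27 genes that could be matched to a RefSeq promoter, in 21 of their 32 promoters, and in 35.7% of all 32851 promoters of the same length (250 bases before to 50 bases after the start). A match of letters is a description and not a measured binding site.

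Atg2a, the paralog of Atg2b, and Atg9a, a membrane-spanning protein of the vesicles that seed the phagophore, had log2 differences of a size similar to Atg2b but did not pass the threshold. Both are given in full as chosen after their values were seen. Atg2a measured 4.52, 3.10 and 4.08 in the vehicle arrays, 4.82, 4.61, 4.02 and 3.67 in the KC arrays and 4.39, 5.27, 5.09, 5.37 and 5.15 in the IL-8 arrays. Vehicle replicate 2 was the lowest of the 12 arrays, and 4 of 5 IL-8 arrays were above all vehicle arrays. The log2 difference from vehicle was 1.16 (SE 0.31, adjusted p = 0.102). Atg9a measured 6.65, 5.71 and 5.90 in the vehicle arrays, 6.81, 6.48, 6.09 and 5.53 in the KC arrays and 6.49, 7.09, 7.02, 7.29 and 6.73 in the IL-8 arrays. Again 4 of 5 IL-8 arrays were above the vehicle arrays, with IL-8 replicate 1 below vehicle replicate 1, and the log2 difference was 0.84 (SE 0.23, adjusted p = 0.108). The PI3P-binding proteins Wipi1 and Wipi2, which recruit the conjugation machinery, had log2 differences of 0.24 and 0.44 (adjusted p = 0.348 and 0.188). In liver-transcript arrays alone the difference was 0.80 for Atg2a and 0.69 for Atg9a, and in the remaining arrays it was 0.70 and 0.38. For Wipi2 it was 0.24 in liver-transcript arrays alone and 0.73 in the remaining ones.

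**Figure D2:**
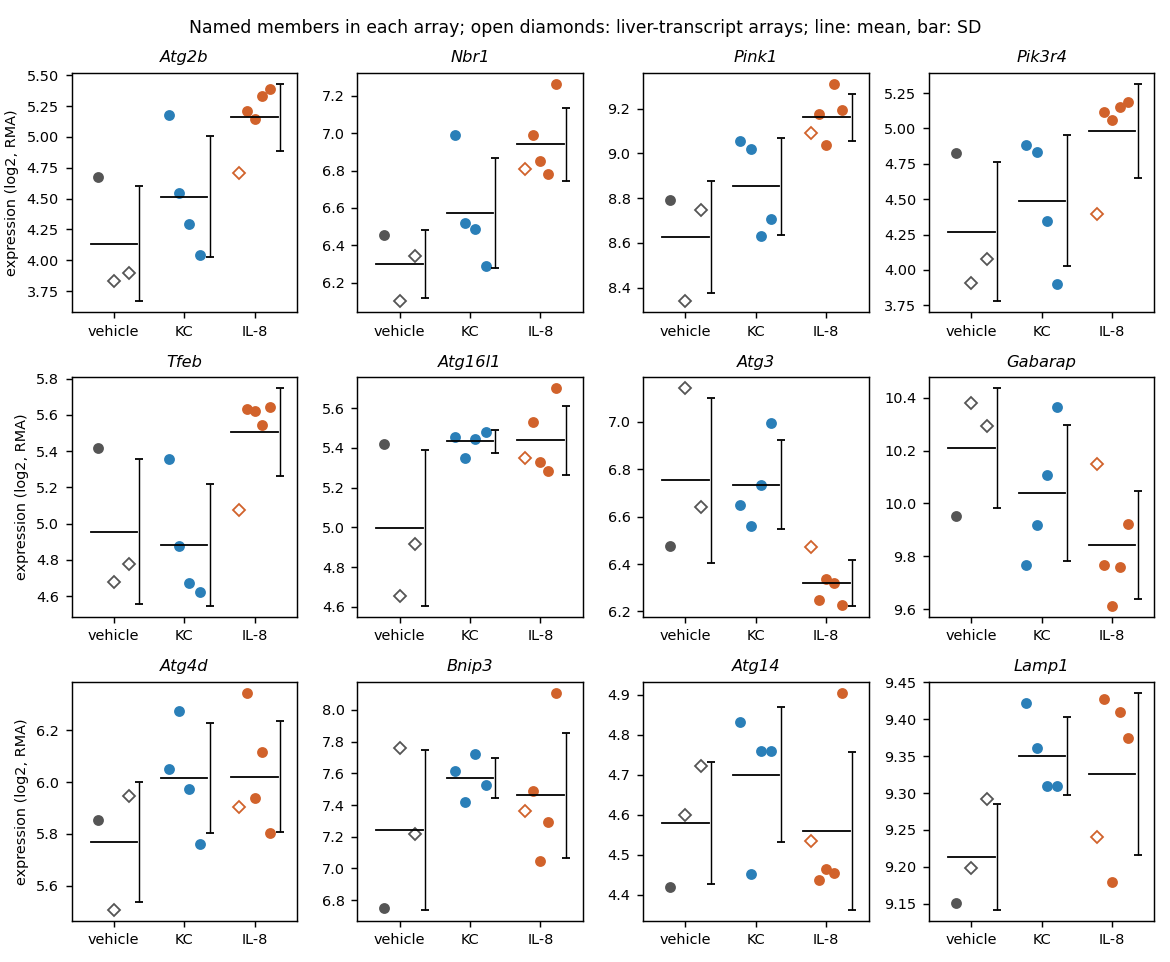
Log2 expression level of the 12 genes named by role, 1 panel per gene, with 1 point per array for vehicle (n = 3), KC (n = 4) and IL-8 (n = 5), the mean as a line and the SD as a bar. Open diamonds are the liver-transcript arrays. All 5 IL-8 points lie above the vehicle points for Atg2b, Nbr1 and Pink1, and below them for Atg3.

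Among the genes of the PI3-kinase complexes that produce PI3P (Becn1, Pik3c3, Pik3r4, Atg14 and Uvrag), 0 of 5 were called (limma). Of the 5, 1 had an unadjusted p under 0.05, and log2 differences ran from -0.021 to 0.71. Pik3r4, the regulatory subunit that anchors the kinase, measured 4.83, 3.90 and 4.07 in the vehicle arrays, 4.88, 4.83, 4.35 and 3.90 in the KC arrays and 4.40, 5.12, 5.06, 5.15 and 5.19 in the IL-8 arrays. The IL-8 arrays other than replicate 1 were above all vehicle arrays. The log2 difference was 0.71 (SE 0.24, adjusted p = 0.140). In liver-transcript arrays alone it was 0.41, and in the remaining arrays 0.30. Atg14, the subunit that targets the complex to the phagophore, measured 4.42, 4.60 and 4.72 in the vehicle arrays, 4.83, 4.45, 4.76 and 4.76 in the KC arrays and 4.54, 4.44, 4.46, 4.45 and 4.91 in the IL-8 arrays. The groups overlapped, and the log2 difference was -0.021 (95% interval -0.33 to 0.29), a direction that turned when the arrays were centred (0.073). Becn1, Pik3c3 and Uvrag had log2 differences of 0.21, 0.15 and 0.098.

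The conjugation genes held values in both directions. Atg7 is the E1-like activating enzyme, Atg3 the E2-like enzyme that passes LC3 on to lipid, Atg5, Atg12 and Atg16l1 form the complex that acts as E3, and of these 5 genes 0 were called (limma), 1 was higher and 1 lower at an unadjusted p under 0.05. Atg3 measured 6.47, 7.14 and 6.64 in the vehicle arrays, 6.65, 6.56, 6.73 and 6.996 in the KC arrays and 6.47, 6.25, 6.34, 6.32 and 6.23 in the IL-8 arrays. The highest IL-8 array, replicate 1 at 6.47, and the lowest vehicle array, replicate 1 at 6.47, were nearly equal. The log2 difference was -0.43 (SE 0.15, adjusted p = 0.155) (exact permutation p = 0.0179, two-sided). Atg16l1 measured 5.42, 4.65 and 4.91 in the vehicle arrays, 5.45, 5.35, 5.45 and 5.48 in the KC arrays and 5.35, 5.53, 5.33, 5.28 and 5.70 in the IL-8 arrays. Vehicle replicates 2 and 4 were the lowest arrays, while vehicle replicate 1 lay inside the IL-8 range. The log2 difference was 0.44 (SE 0.18, adjusted p = 0.188). It was 0.57 within liver-transcript arrays and 0.039 within the remaining ones, and for Atg3 these values were -0.42 and -0.19. Atg5, Atg7 and Atg12 had log2 differences of -0.089, 0.14 and 0.059.

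Promoter stretches of Atg3 and Atg7 are shown because both hold the extended E-box TCACGTG, the core of the element that Tfeb and its relatives are known to bind, and Tfeb is itself a member. Both are RefSeq sequence of GRCm38.p6, plus strand, 5′ to 3′, with the motif in capitals on either strand, at chr16:45158699-45158798 for Atg3 and chr6:114670933-114670999 for Atg7.
Atg3: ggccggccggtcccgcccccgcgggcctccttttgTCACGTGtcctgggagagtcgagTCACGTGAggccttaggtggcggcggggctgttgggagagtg
Atg7: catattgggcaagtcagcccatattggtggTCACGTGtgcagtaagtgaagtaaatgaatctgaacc
The extended E-box lay in the promoters of 4 of the 27 matched genes (Atg3, Atg7, Atg14 and Lamp1) and in 3.77% of all promoters. In Atg3 the downstream copy is the palindrome TCACGTGA, which 0.974% of all promoters held. The plain E-box CACGTG, which every extended E-box contains, was in 6 of the genes and in 7.15% of all promoters. The FoxO motif GTAAACA was in none of the 27 and in 3.65% of all promoters.

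Of the Atg4 proteases, which trim Atg8-family proteins before conjugation and release them later, 0 of 4 were called or had an unadjusted p under 0.05 (limma). Atg4d measured 5.85, 5.51 and 5.95 in the vehicle arrays, 6.05, 6.27, 5.97 and 5.76 in the KC arrays and 5.90, 6.35, 5.94, 6.11 and 5.80 in the IL-8 arrays, with groups that overlapped and a log2 difference of 0.25 (SE 0.16, adjusted p = 0.358). Atg4a, Atg4b and Atg4c had log2 differences of -0.030, 0.31 and -0.013. The value for Atg4b was 0.69 in liver-transcript arrays alone and -0.35 in the remaining ones.

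In the Atg8 family (Map1lc3a, Map1lc3b, Gabarap, Gabarapl1 and Gabarapl2), the proteins that coat the autophagosome and hold cargo receptors, 0 of 5 were called (limma), and the median log2 difference was 0.016. Gabarap measured 9.95, 10.38 and 10.29 in the vehicle arrays, 9.77, 9.92, 10.11 and 10.36 in the KC arrays and 10.15, 9.77, 9.61, 9.76 and 9.92 in the IL-8 arrays. Vehicle replicate 1 lay among the IL-8 arrays, and 4 of 5 IL-8 arrays were below all vehicle arrays. The log2 difference was -0.37 (SE 0.15, adjusted p = 0.202), the only one of the family with an unadjusted p under 0.05, and -0.19 both within liver-transcript arrays and within the remaining ones. Map1lc3b, which codes for the LC3 protein used to mark autophagosomes, averaged 8.47 ± 0.51 in vehicle and 8.49 ± 0.35 in IL-8 arrays (SD), a log2 difference of 0.016 (95% interval -0.53 to 0.56). Map1lc3a, Gabarapl1 and Gabarapl2 had log2 differences of 0.18, 0.31 and -0.15.

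Both measured cargo receptors, which bind ubiquitin on one side and Atg8-family proteins on the other, had means above vehicle. Nbr1 measured 6.45, 6.10 and 6.34 in the vehicle arrays, 6.99, 6.52, 6.49 and 6.29 in the KC arrays and 6.81, 6.99, 6.85, 6.78 and 7.26 in the IL-8 arrays. Every IL-8 array was above every vehicle array, and the KC arrays spanned the gap between them. The means were 6.30 ± 0.18 (SD, n = 3) in vehicle and 6.94 ± 0.20 (SD, n = 5) in IL-8 arrays, a log2 difference of 0.64 (SE 0.14, adjusted p = 0.0911). The exact permutation p, two-sided, was 0.0179. With the liver-transcript term the difference was 0.55 (SE 0.16, adjusted p = 0.250), and it was 0.59 within those arrays and 0.52 within the remaining ones. Leaving out any of the 6 arrays named for Atg2b also ended this call, with adjusted p from 0.136 to 0.321. At most 0.0129% of all genes were called higher in those settings. Sqstm1, the receptor p62, measured 9.25, 8.61 and 9.23 in the vehicle arrays, 9.22, 9.14, 9.08 and 9.11 in the KC arrays and 9.28, 9.28, 9.11, 9.42 and 10.19 in the IL-8 arrays. IL-8 replicate 5 stood far above the other IL-8 arrays. The log2 difference was 0.42 (SE 0.24, adjusted p = 0.332), with 0.35 within liver-transcript arrays and 0.25 within the remaining ones.

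Among the 4 mitophagy genes, 0 were called (limma). Pink1, the kinase that flags damaged mitochondria, measured 8.79, 8.34 and 8.75 in the vehicle arrays, 9.06, 9.02, 8.63 and 8.71 in the KC arrays and 9.09, 9.18, 9.04, 9.31 and 9.19 in the IL-8 arrays. Every IL-8 array was above every vehicle array. Its log2 difference of 0.54 (SE 0.13, adjusted p = 0.0954) passed the p threshold, but at 1.45-fold it stayed under the fold minimum. Without that minimum, 3 of the 33 were called higher (1.98% of all genes) and 0 lower (1.16%). It was 0.55 within liver-transcript arrays and 0.39 within the remaining ones, and with the liver-transcript term the adjusted p was 0.304. Bnip3, a mitophagy receptor known to respond to hypoxia and FoxO factors, measured 6.75, 7.76 and 7.22 in the vehicle arrays, 7.62, 7.42, 7.72 and 7.53 in the KC arrays and 7.36, 7.49, 7.05, 7.29 and 8.11 in the IL-8 arrays. The vehicle arrays spanned the values of all others except IL-8 replicate 5. Its log2 difference was 0.22 (SE 0.26, adjusted p = 0.641), with -0.13 within liver-transcript arrays and 0.73 within the remaining ones. The related receptor Bnip3l measured 7.47, 7.51 and 7.56 in vehicle and 7.39, 7.27, 7.37, 7.32 and 7.47 in IL-8 arrays. These groups did not overlap, although their nearest arrays were both at 7.47, and the log2 difference was -0.15 (SE 0.10, adjusted p = 0.408). Fundc1, a receptor of the outer mitochondrial membrane, had a log2 difference of -0.38 (SE 0.21, adjusted p = 0.312). For Fundc1 this was -0.022 within liver-transcript arrays and -0.32 within the remaining ones. Bnip3l and Fundc1 were named after their values were seen.

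Of the lysosomal membrane proteins Lamp1 and Lamp2 and the transcription factor Tfeb, which controls lysosomal and autophagy genes, 0 were called (limma) and Tfeb had an unadjusted p under 0.05. Tfeb measured 5.41, 4.68 and 4.77 in the vehicle arrays, 5.36, 4.88, 4.67 and 4.62 in the KC arrays and 5.07, 5.63, 5.62, 5.55 and 5.64 in the IL-8 arrays. The IL-8 arrays other than replicate 1 were above all KC and vehicle arrays. Against vehicle the log2 difference was 0.55 (SE 0.19, adjusted p = 0.154), with 0.35 within liver-transcript arrays and 0.20 within the remaining ones. Lamp1 measured 9.15, 9.20 and 9.29 in the vehicle arrays, 9.42, 9.36, 9.31 and 9.31 in the KC arrays and 9.24, 9.43, 9.18, 9.41 and 9.37 in the IL-8 arrays, with all 12 arrays between 9.15 and 9.43. Its log2 difference was 0.11 (SE 0.11, adjusted p = 0.568). Lamp2 had a log2 difference of -0.34 (SE 0.17, adjusted p = 0.269), with -0.17 within liver-transcript arrays and -0.33 within the remaining ones.

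The Lamp1 promoter is shown because it held 4 extended E-boxes within 62 bases of the start site, more than any other gene of the list. The stretch is RefSeq sequence of GRCm38.p6, chr8:13159061-13159160, plus strand, the 100 bases before the start, with the motif in capitals on either strand.
Lamp1: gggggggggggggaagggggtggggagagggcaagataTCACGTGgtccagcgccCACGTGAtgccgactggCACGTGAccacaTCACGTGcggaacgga
The promoters of Atg2b and Nbr1, the genes called in IL-8 versus vehicle, and of Tfeb held none of the extended E-boxes in the window searched. From a window without these letters nothing follows about the factor.

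**Figure D3:**
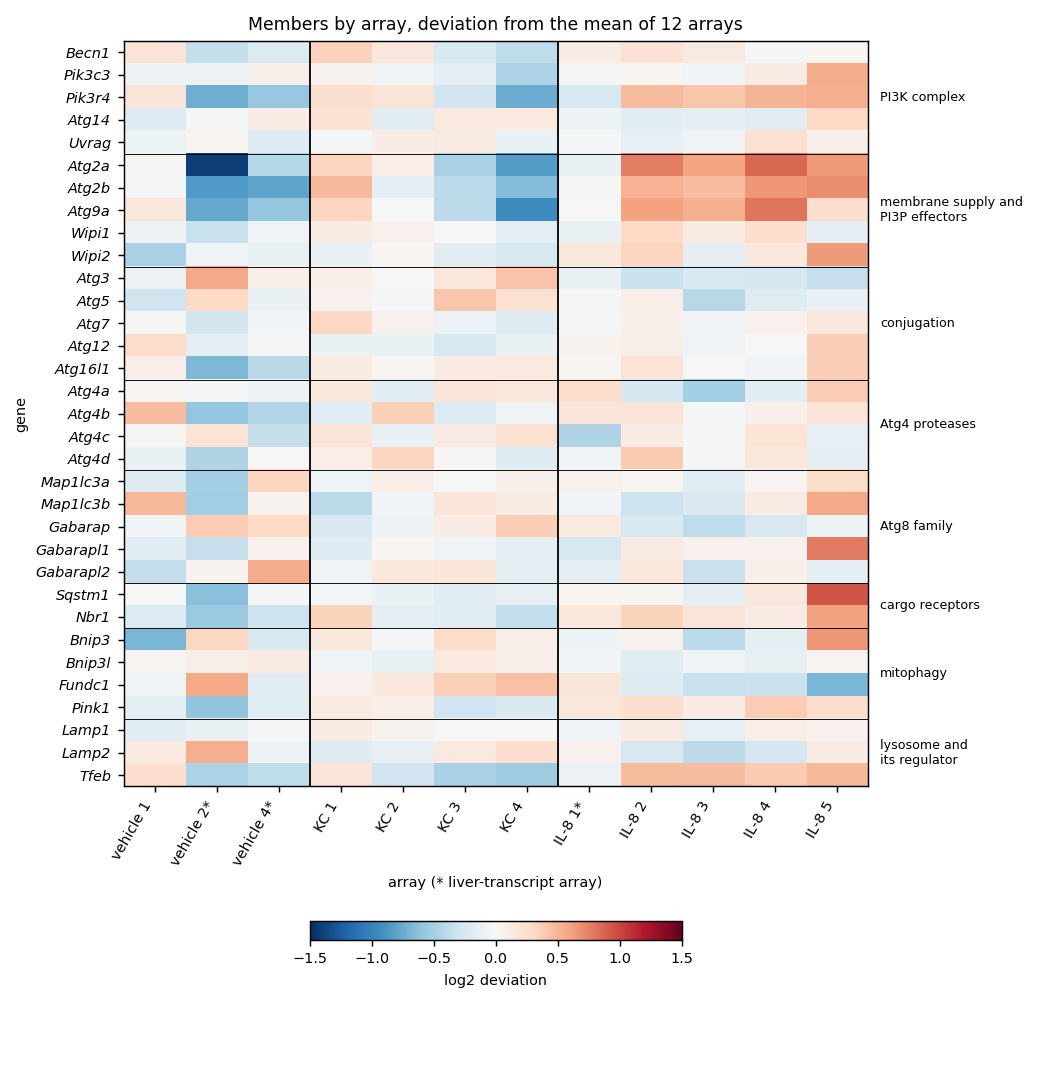
Deviation of each of the 33 genes (rows, ordered by role) from its own mean over the 12 arrays (columns, grouped as vehicle, KC and IL-8, with * for the liver-transcript arrays), in log2 units and with colours limited to ±1.5. Atg2a, Atg2b, Atg9a, Pik3r4 and Tfeb are low in vehicle replicates 2 and 4 and in KC replicate 4 and high in IL-8 replicates 2 to 5.

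KC versus vehicle asked the same of the mouse chemokine, against the same 3 vehicle arrays. None of the 33 genes was called higher or lower in limma, as for all genes (0.00%). By the unequal-variance test 0 of the 33 had an unadjusted p under 0.05 (2.98% of all genes). In limma, Atg16l1 was the only gene of the 33 with an unadjusted p under 0.05 (1.66% of all genes higher and 2.32% lower). Its log2 difference was 0.44 (SE 0.18, adjusted p = 0.994), with 3 of 4 KC arrays above all vehicle arrays. Against vehicle replicate 1 alone, the vehicle array without liver transcripts, this difference was 0.011. Lamp1 was the only gene of the 33 whose groups did not overlap (2.50% of all genes higher and 2.45% lower), by 0.14 on the log2 scale (exact permutation p = 0.0286, two-sided, the smallest that 35 splits allow). The mean was above vehicle for 24 of 33 genes and for 49.1% of all genes. The median log2 difference was 0.12 over the 33 genes, -0.0043 over all genes and 0.054 over the brighter 11592 genes, which held all 33.

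These small values do not show that KC had no effect on the genes, since the intervals were wide. The 95% interval was -0.27 to 1.03 around a log2 difference of 0.38 for Atg2b, and -0.14 to 0.69 around 0.27 for Nbr1. For Tfeb it was -0.60 to 0.45 around -0.074. By role, the gene with the smallest p was Atg14 (0.12) among the kinase complex genes and Atg4d (0.25) among the proteases. It was Gabarap (-0.17) in the Atg8 family and Bnip3 (0.33) among the mitophagy genes. None of the KC arrays was a liver-transcript array and 2 of the 3 vehicle arrays were. Set against vehicle replicate 1 alone, the KC mean of Atg2b differed by -0.16, that of Nbr1 by 0.12, that of Pik3r4 by -0.34, that of Tfeb by -0.53 and that of Bnip3 by 0.82. Over the 33 genes the median against that array was 0.064, with 20 above 0.

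IL-8 versus KC compared mice given the same dose of either chemokine. Tfeb rose, by 1.54-fold in IL-8 over KC, and was the only called gene of the 33, against 1.61% of all genes called higher, 1.41% lower and 3.02% in either direction. Its means were 4.88 ± 0.33 (SD, n = 4) and 5.50 ± 0.24 (SD, n = 5), a log2 difference of 0.62 (SE 0.17, adjusted p = 0.0908). In all, 4 of 5 IL-8 arrays were above every KC array (exact permutation p = 0.0238, two-sided). Without IL-8 replicate 1, the liver-transcript array of this comparison, the log2 difference was 0.73 (adjusted p = 0.0439), and Atg2a, Atg2b and Atg9a were called higher and Fundc1 lower as well, while the calls over all genes were 2.90% higher and 1.97% lower. The same number of the 33 was called each way without KC replicate 1, with 4.06% and 3.45% over all genes. The Tfeb call was lost when any other array was left out. Over all genes, 1.48% were called higher without KC replicate 2 and at most 0.0129% without each of the remaining arrays.

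At an unadjusted p under 0.05, 8 genes were higher in IL-8 than in KC arrays (8.76% of all genes) and 3 were lower (11.1%). The higher ones were Atg2a (0.77), Atg9a (0.69), Atg2b (0.64), Tfeb, Pik3r4 (0.49), Nbr1 (0.37), Wipi2 (0.34) and Pink1 (0.31), in log2 units. The lower ones were Fundc1 (-0.52), Atg3 (-0.41) and Atg5 (-0.30). Without the fold minimum, 1 gene (Tfeb) passed the p threshold as higher (2.44% of all genes) and 1 (Atg3, adjusted p = 0.0851) as lower (2.51% of all genes). For Atg3 all 5 IL-8 arrays were below all 4 KC arrays (exact permutation p = 0.00794, two-sided, the smallest that 126 splits allow). Fundc1 measured 6.00, 6.62 and 5.89 in the vehicle arrays, 6.12, 6.21, 6.41 and 6.50 in the KC arrays and 6.23, 5.87, 5.72, 5.74 and 5.37 in the IL-8 arrays, with IL-8 replicate 1 inside the KC range (adjusted p = 0.110). By the unequal-variance test 4 genes (Atg3, Atg12, Fundc1 and Tfeb) had an unadjusted p under 0.05, against 14.0% of all genes. Groups did not overlap for Atg12 among higher genes (2.48% of all genes) and Atg3 among lower genes (4.20%). The IL-8 mean was above the KC mean for 20 of 33 genes, against 41.0% of all genes, with medians of 0.028 and -0.047. Over the brighter 11592 genes, which held all 33, the median was 0.018.

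**Figure D4:**
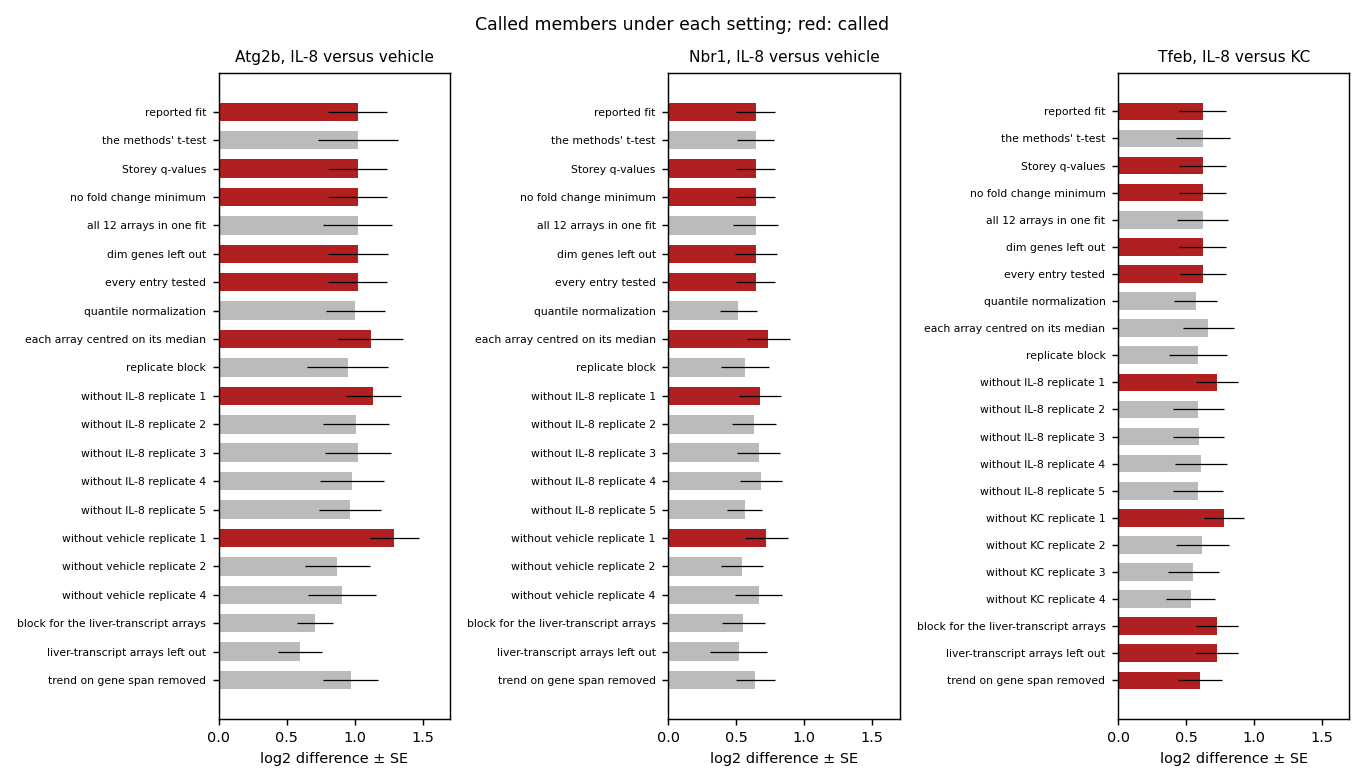
Log2 difference (bars, from 0) and standard error (lines) of the called genes (Atg2b and Nbr1 for IL-8 versus vehicle, Tfeb for IL-8 versus KC) under each processing setting and with each array left out in turn, with red for settings under which the gene was called. Every bar lies above 0, and the Atg2b value runs from 0.60 without the liver-transcript arrays to 1.29 without vehicle replicate 1.

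Other genes of the route were counted from lists chosen with earlier results of these data known. Of 32 further genes of the autophagy machinery, 3 rose and 0 fell in IL-8 versus vehicle (1.75% and 0.802% of all genes). At an unadjusted p under 0.05, 17 were higher and 1 lower (10.1% and 11.6% of all genes). The median log2 difference was 0.37 (-0.071 over all genes). With the liver-transcript term 0% of all genes were called in IL-8 versus vehicle, so none of the 3 was called there. The 3 were Epg5, a tether between autophagosome and lysosome (1.22, SE 0.30, adjusted p = 0.0947), Wdfy3, the scaffold Alfy for aggregate clearance (0.76, SE 0.19, adjusted p = 0.0954), and Ambra1, a Becn1-binding regulator (0.74, SE 0.18, adjusted p = 0.0954). In IL-8 versus KC, 3 rose and 0 fell (1.61% and 1.41% of all genes), with a median of 0.18 (-0.047 over all genes). They were Epg5 (0.97, adjusted p = 0.0882), Wdfy3 (0.69, adjusted p = 0.0768) and the receptor Calcoco1 (0.76, adjusted p = 0.0642). In KC versus vehicle none was called in limma (0.00% of all genes), and the median was 0.10 (-0.0043 over all genes). Vamp8, a SNARE of the fusion step, had the smallest p (0.56, adjusted p = 0.994). The mean level of the 32 genes was 5.60 to 5.94 in vehicle, 5.72 to 6.00 in KC and 5.92 to 6.15 in IL-8 arrays.

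Of 14 further mitophagy genes measured, none was called in any comparison (limma). Over all genes, 2.55% were called in IL-8 versus vehicle, 0.00% in KC versus vehicle and 3.02% in IL-8 versus KC. At an unadjusted p under 0.05, 3 were higher and 0 lower in IL-8 versus vehicle (10.1% and 11.6% of all genes). In KC versus vehicle 1 was higher (1.66%), and in IL-8 versus KC 1 was higher and 2 lower (8.76% and 11.1%). The mitochondrial deubiquitinase Usp30 had the smallest p in IL-8 versus vehicle (0.59, adjusted p = 0.120) and in KC versus vehicle (0.53, adjusted p = 0.994), and Park7 in IL-8 versus KC (-0.35, adjusted p = 0.104). Of 27 lysosomal genes measured, 2 rose and 0 fell in IL-8 versus vehicle (1.75% and 0.802% of all genes). They were Gaa, the lysosomal enzyme that degrades glycogen (1.10, SE 0.28, adjusted p = 0.0992), and Atp6v0a1, a subunit of the proton pump (1.07, SE 0.28, adjusted p = 0.0995). With the liver-transcript term, which called 0% of all genes, neither Gaa nor Atp6v0a1 was called in that comparison. At an unadjusted p under 0.05 in the reported fit, 7 of the 27 were higher and 1 lower (10.1% and 11.6% of all genes). In IL-8 versus KC, Atp6v0a1 (1.15, adjusted p = 0.0703), Gaa (1.02, adjusted p = 0.0812) and the protease Tpp1 (0.70, adjusted p = 0.0642) rose and 0 fell. Over all genes 1.61% rose and 1.41% fell there. In KC versus vehicle 0 of the 27 were called in limma (0.00% of all genes). There 1 was higher at an unadjusted p under 0.05 (1.66% of all genes). The median log2 differences of the lysosomal genes were 0.15, 0.087 and 0.0031 in IL-8 versus vehicle, KC versus vehicle and IL-8 versus KC. Over all genes they were -0.071, -0.0043 and -0.047.

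The length of the gene is a property that the choice of genes did not use. The span from first to last base was 29.7 kb at the median of the 33 genes and 15.6 kb over all genes. Across all 23185 genes, which are not independent replicates and share the same arrays, the Spearman correlation of span with the log2 difference was 0.27 in IL-8 versus vehicle, 0.11 in KC versus vehicle and 0.23 in IL-8 versus KC. Across the 33 genes it was -0.062, 0.13 and -0.14. Removing the trend on span from each array, an alternative chosen after seeing the data, left the Atg2b and Nbr1 differences at 0.97 and 0.64 and their adjusted p at 0.101. By that setting 0 of the 33 were called in IL-8 versus vehicle, as were only 0.00863% of all genes as higher and 0% as lower. Tfeb was still called in IL-8 versus KC, where 1.6% of all genes were called higher and 0.932% lower.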

How the data were processed

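RNA was measured on 12 GeneChip Mouse Gene 2.0 ST arrays (3 vehicle, 4 KC, 5 IL-8). The values that the authors deposited are log2 expression levels from RMA (affy 1.36.1 and R 2.15.1 in the submitters' processing notes). RMA subtracts background, normalizes probes by quantiles and summarizes them, which brings overall brightness closer between arrays. The array medians still ran from 3.31 to 3.48. In IL-8 versus vehicle the median difference of the 33 genes, 0.18 as deposited, was 0.098 after further quantile normalization and 0.27 with centred arrays. Over all genes it was 0.0053 and 0.022 in those settings. The sources used here do not say whether all arrays went through 1 run. Of 25206 entries, 23185 had 1 symbol in the platform annotation, and 2021 unnamed entries were not tested. Arrays give no read depth, and their number limits the precision.

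Each comparison was fitted on the deposited log2 values of its own groups with limma 3.58.1 (lmFit, eBayes) in R 4.3.3, without covariates. A call needed 1.5-fold and an adjusted p (Benjamini-Hochberg, over all 23185 genes) of at most 0.1, the thresholds in the study's methods. Its GenePattern module was not run. The script was tested on simulated data. IL-8 versus vehicle and KC versus vehicle share the vehicle arrays. The members and lists were chosen with earlier results of these data known. Given in full are called members and, in each role, the member with the smallest p in IL-8 versus vehicle and in KC versus vehicle. Others were named after their values were seen, and pathway lists by called members or the smallest p. An array was called a liver-transcript array where its liver markers averaged above 5. Alternatives were a test of group means with unequal variances, Storey q-values, no fold minimum and all 12 arrays in one fit. Further ones were dim genes left out, every entry, quantile normalization, centring, a replicate block and leaving out each array. The unequal-variance test was not the study's array test. The settings for liver transcripts and gene span were added after seeing the data. Sequences are RefSeq, GRCm38.p6, and 27 of 33 measured members matched.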

Additional observations from a re-analysis of the deposited data

Results flagged for a closer look

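In each KC and IL-8 group the highest or lowest array was set against the rest by Dixon's ratio, for 66 groups of values in all, of which chance alone flags about 1 in 20. It picked out 8 values. IL-8 replicate 1, a liver-transcript array, was low for 3 genes: Pik3r4 was 4.40 there while the rest of the group held 5.06 to 5.19, Atg2a was 4.39 against 5.09 to 5.37, and Tfeb was 5.07 against 5.55 to 5.64. IL-8 replicate 5 was high for 3 genes: Pik3c3 was 6.38 against 5.79 to 5.96, Atg14 was 4.91 against 4.44 to 4.54, and Sqstm1 was 10.19 against 9.11 to 9.42. KC replicate 3 was low for Atg12, at 5.14 against 5.28 in each of the other KC arrays. KC replicate 2 was low for Atg4a, at 5.71 against 6.04 to 6.06.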

How the results depend on the processing

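Of 720 values of the 12 named genes under alternatives, 630 kept direction and call, 38 lost the call, 16 gained one and 36 turned direction. The 720 count both liver settings, which give equal estimates in KC versus vehicle and in IL-8 versus KC. In IL-8 versus KC these also equal the estimates without IL-8 replicate 1. Several alternatives reuse the reported difference, so a direction could not turn in them. These are the unequal-variance test, Storey q-values, no fold minimum, all 12 arrays in one fit, dim genes left out and every entry. In the alternatives that change the difference, the directions of Atg2b and Nbr1 (IL-8 versus vehicle) and Tfeb (IL-8 versus KC) held. Counts of called genes did not. For IL-8 versus vehicle, the 2 higher genes became 0 by the unequal-variance test and with the liver-transcript block (0% of all genes in both). That test gave 2 higher and 1 lower at an unadjusted p under 0.05. The higher genes also became 0 in one fit of all 12 arrays (0.349% of all genes), after quantile normalization (0.00863%) and without the span trend (0.00863%). They became 5 with Storey q-values (4.11% of all genes), and 4 with dim genes left out (6.42%) or with centred arrays (2.39%). For IL-8 versus KC, the 1 higher gene became 0 by the unequal-variance test (0% of all genes) and in one fit (0.00431%). That test gave 2 higher and 2 lower at an unadjusted p under 0.05. The gene also lost its call after quantile normalization and with centred arrays, where 1.39% and 1.6% of all genes were still called higher. The count became 4 with Storey q-values (2.45% of all genes) and with dim genes left out (4.69%). It was also 4 with the liver-transcript block or without IL-8 replicate 1 (2.90%). In IL-8 versus KC the 0 lower genes became 1 without the fold minimum (Atg3, 2.51% of all genes). They became 1 in both liver settings (Fundc1, 1.97%). The cause was not tested. Leaving out each array gave 0 to 9 higher genes for IL-8 versus vehicle (9 without vehicle replicate 1, with 7.74% of all genes, and 6 without IL-8 replicate 1, with 3.57%). Where that count was 0, at most 0.0129% of all genes were called higher. For IL-8 versus KC it gave 0 to 4 higher and 0 to 1 lower. KC versus vehicle stayed at 0 under every setting.

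The replicate number as a block was fitted only on arrays whose number occurs in both groups. This left out IL-8 replicate 3 and IL-8 replicate 5 against vehicle, KC replicate 3 against vehicle, and IL-8 replicate 5 against KC. The setting called 0 genes in each comparison (Atg2b 0.95 and Nbr1 0.56, adjusted p = 0.463 for both, and Tfeb in IL-8 versus KC 0.59, adjusted p = 0.275). The effect of the block cannot be told apart there from that of the arrays left out. Deviations of same-numbered arrays correlated from -0.32 to 0.0024 for IL-8 versus vehicle, from -0.17 to 0.36 for KC versus vehicle and from -0.36 to 0.12 for IL-8 versus KC. Whether same-numbered arrays share anything beyond the number was not tested.

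Some directions turned. In IL-8 versus vehicle, Atg14 was 0.073 with centred arrays, 0.023 with the liver-transcript block and 0.15 without those arrays, and with arrays left out in turn it ran from -0.11 to 0.051, and Bnip3 from -0.027 to 0.48. In KC versus vehicle no KC array held liver transcripts, so the liver settings give a single estimate, that against vehicle replicate 1. It was -0.34 for Pik3r4, -0.16 for Atg2b, 0.26 for Atg3 and 0.087 for Gabarap. Centring gave 0.035 for Atg3, and with arrays left out Atg3 ran from -0.16 to 0.18 and Tfeb from -0.23 to 0.15. In IL-8 versus KC, quantile normalization gave -0.057 for Atg16l1, -0.063 for Atg4d and 0.039 for Lamp1, the replicate block -0.059 for Atg16l1, and Lamp1 was 0.017 with centred arrays and 0.0061 without the span trend. With arrays left out there, Atg16l1 ran from -0.059 to 0.045, Atg4d from -0.078 to 0.093 and Lamp1 from -0.050 to 0.012.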

Other observations

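Within groups, single arrays held the extreme values of many of the 33 genes. IL-8 replicate 5 was the highest IL-8 array for 19 of them and for 23.9% of all genes, and IL-8 replicate 3 was the lowest for 15 and for 17.7% of all genes. Vehicle replicate 2, a liver-transcript array, was the lowest vehicle array for 18 of the 33 and for 30.1% of all genes. KC replicate 1 was the highest KC array for 15 genes and for 24.9% of all genes, and KC replicate 4 the lowest for 15 and for 24.5% of all genes.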
